A study of Rattus norvegicus with 2 samples.

Results

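rno-miR-143, rno-miR-145 and rno-miR-126 (miR-143, miR-145 and miR-126 below) are 3 rat microRNAs (miRNAs, short RNAs that repress mRNAs through a short seed near their 5′ end) of the vessel wall, and they were chosen by name from the 350 rat miRNAs on the array. In rat tongue, miR-143 and miR-126 were measured on both the tumour and the normal sample's array, and each had higher signal on the tumour-labelled array. The files do not settle whether the 2 labels were exchanged, in which case each would be lower in tumour. miR-145 did not pass the main detection rule on either array. The study compared squamous cell carcinomas of the tongue with normal tongue. Male Sprague-Dawley rats, 6 to 7 weeks old when divided into arms, drank the carcinogen 4NQO (4-nitroquinoline 1-oxide) at 0.02 g/l, and tumours were taken from them at the end of week 36. Controls of the same strain, sex and age drank distilled water and gave normal tongue at the same week, with 20 rats in each arm, and 7 tissues of each kind were extracted per the labels. The data are 2 arrays, 1 with each label, and the sources used here do not say whether either held RNA of 1 rat or of a pool.

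miR-143 and miR-145 are processed from a shared primary transcript that is abundant in smooth muscle, where serum response factor and myocardin drive it. Together they help hold smooth muscle cells in a contractile state, with KLF4, KLF5 and ELK1 among their targets. miR-126 is carried by the endothelial gene EGFL7 and is enriched in endothelial cells, where it sustains growth factor signalling by repressing SPRED1 and PIK3R2. The lineage of each miRNA is background knowledge and was not measured here. In a bulk extract, fewer cells of a type and less of the miRNA per cell cannot be told apart.

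The mature sequences are shown because each of the 3 miRNAs carries a seed of its own. They come from RefSeq for the rat assembly GRCr8, with bases 2 to 8, the seed, in capitals.
miR-143-3p: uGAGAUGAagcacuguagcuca
miR-145-5p: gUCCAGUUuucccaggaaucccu
miR-126a-3p: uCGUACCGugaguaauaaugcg
None of the other mature rat miRNAs in that table, which holds 692 distinct sequences, had any of these seeds. The match of the array's rno-miR-126 was made by sequence, since RefSeq calls this strand rno-miR-126a-3p and gives its gene the symbol Mir126b.

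The hairpins of the smooth muscle pair are shown because they lie together in the genome. In GRCr8 the miR-143 hairpin is at chr18:57371349-57371453 and the miR-145 hairpin at chr18:57369983-57370070, both on the minus strand, with 1278 bases between them. RefSeq places both inside the long noncoding RNA gene Carmn. The mature strand read by the array is in capitals.
Mir143 hairpin: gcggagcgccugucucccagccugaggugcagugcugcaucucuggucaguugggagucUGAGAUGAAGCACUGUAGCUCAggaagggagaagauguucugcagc
Mir145 hairpin: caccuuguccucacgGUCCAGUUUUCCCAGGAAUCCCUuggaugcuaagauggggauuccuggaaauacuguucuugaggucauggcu
The mature miR-126 lies at chr3:29813219-29813240 on the plus strand of GRCr8, and the same gene table places it inside Egfl7. Exon and intron positions were not used here. The array's own grid names the older build rn4, for which no coordinates are given.

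Each of the 3 miRNAs had 2 probes. The probes are shown because they differ in length, and length went with detection on this array. All 6 were exact complements of the 3′ part of their miRNA.
miR-143 probe 1: tgagctacagtgcttcatc
miR-143 probe 2: tgagctacagtgcttcat
miR-145 probe 1: agggattcctggg
miR-145 probe 2: agggattcctggga
miR-126 probe 1: cgcattattactcacgg
miR-126 probe 2: cgcattattactcacggt
The miR-143 probes had 19 and 18 bases and covered bases 4 to 22 and 5 to 22 of the miRNA. The miR-126 probes had 17 and 18 bases and covered bases 6 to 22 and 5 to 22. The miR-145 probes had 13 and 14 bases, reached back to bases 11 and 10, and included none of the seed. The longest stretch that a probe's target shared with any other mature rat miRNA was 8 bases for miR-143 and for miR-145, and 10 bases for miR-126, in rno-miR-126b.

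Cy3-labelled RNA was hybridised to 1-colour Agilent miRNA arrays on 1 slide, with 938 probes on 7000 spots per array. A probe was detected if over 50% of its unmarked spots passed the scanner software's flag for signal well above background. By that rule the tumour-labelled array had 104 detected miRNAs and the normal-labelled array 88. Levels were divided by each array's 75th percentile taken over 140 probes that both arrays detected, 525.6 and 277.5 intensity units on the tumour-labelled and normal-labelled arrays. The 2 percentiles stand 1.89-fold apart (0.92 on the log2 scale), which any value without scaling includes. With 1 array per group no test between groups was possible, and the errors given are the spread of spots within an array, not of animals. The labelled tissue was checked on its markers: all 7 epithelial miRNAs of the list and 5 of the 7 skeletal muscle miRNAs were detected on each array. Of all miRNAs, 29.7% were detected on the tumour-labelled array and 25.1% on the normal-labelled array. These detections do not tell the tumour array from the normal one. The muscle list took 28.2% of the summed miRNA signal on the tumour-labelled array and 4.46% on the normal-labelled array. miR-21 and miR-31, known to be raised in many squamous carcinomas and picked here after their values were seen, stood at log2 ratios of -3.26 and -3.93, the lowest of all 85. These values go against the labels, and the files do not settle whether the 2 labels were exchanged. Each direction below therefore belongs to the label of the array: with the labels exchanged, miR-143 and miR-126 would stand at -0.82 and -0.68, at ranks 71 and 67 of 85.

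Of the 3 vascular miRNAs, 2 were detected on each array, against 29.7% of all miRNAs on the tumour-labelled array and 25.1% on the normal-labelled array. miR-143, the smooth muscle member that was measured, had a lowest, median and highest spot signal of 484.6, 529.7 and 553.3 intensity units on the tumour-labelled array with its first probe. On the normal-labelled array the same 10 spots read 152.8, 157.6 and 168.0. With the second probe miR-143 read 97.6, 106.6 and 116.2 on the tumour-labelled array, against 23.4, 31.1 and 35.4 on the normal-labelled array. The mean over unmarked spots was 521.6 ± 20.8 units with the first probe on the tumour-labelled array, against 158.3 ± 5.13 on the normal-labelled array (SD, 10 spots each). Before scaling, the spots of the 2 arrays did not overlap with either probe. All 10 spot positions of each probe were then higher on the tumour-labelled array. Most miRNAs were brighter on that array before scaling, with a median unscaled log2 ratio of 0.46 over all 85 measured on both. The share of all probes that separated in this way was not counted. After scaling, miR-143 was 1.77-fold higher on the tumour-labelled array (log2 ratio 0.82, spot SE 0.03), with 0.80 from the first probe and 0.84 from the second.

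miR-126, the endothelial member, was also brighter on the tumour-labelled array. Its first probe read 151.6, 156.1 and 187.2 intensity units (lowest, median and highest of 10 spots) on the tumour-labelled array, and 49.6, 53.8 and 116.6 on the normal-labelled array. The highest spot on each array was one that the software marked as an outlier, and such spots were left out of the levels. Its second probe read 592.1, 613.1 and 630.4 on the tumour-labelled array, against 178.2, 199.0 and 208.5 on the normal-labelled array. The mean of the second probe was 612.3 ± 12.4 units on the tumour-labelled array (SD, 10 spots) and 198.8 ± 6.04 on the normal-labelled array (SD, 9 unmarked spots). Again the spots of the 2 arrays, before scaling, did not overlap with either probe, and the share of all probes that did so was not counted. The tumour-labelled array was 1.89-fold brighter at the scaling percentile, so this separation is not shown to be particular to miR-126. The 95th percentile of the negative control spots was far below the miR-126 spots, at 6.47 units on the tumour-labelled array and 9.38 on the normal-labelled array. After scaling, miR-126 was 1.60-fold higher on the tumour-labelled array (log2 ratio 0.68, spot SE 0.02), with 0.65 from the first probe and 0.70 from the second.

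**Figure D1:**
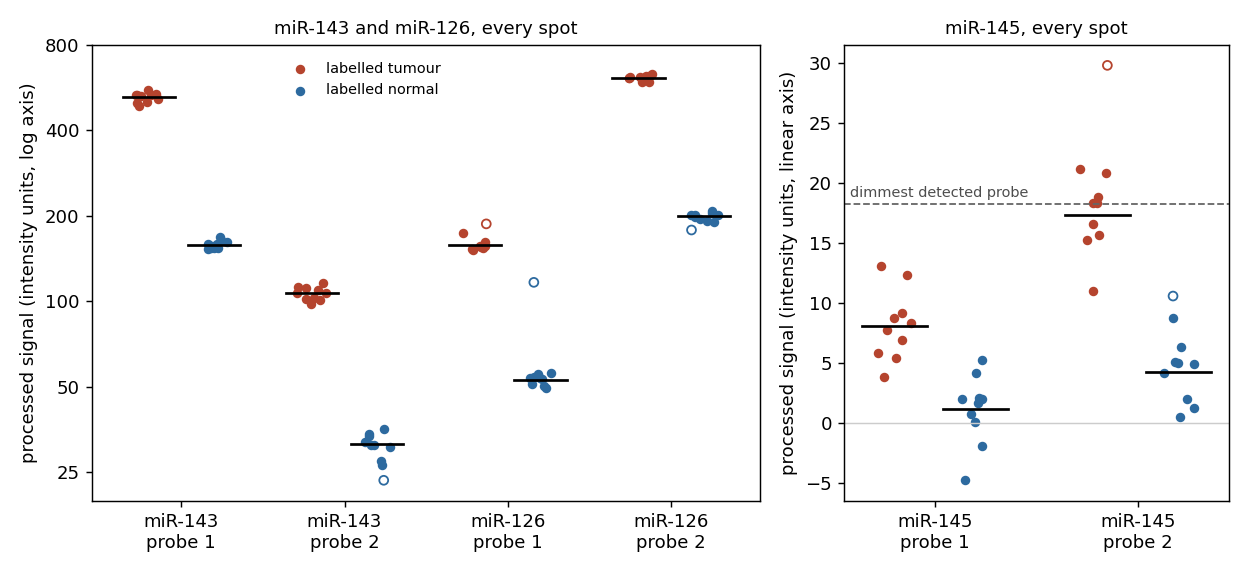
Processed signal of every spot of the 2 probes of miR-143 and miR-126 (left, log axis) and of miR-145 (right, linear axis), in intensity units, with the tumour-labelled array left of the normal-labelled array for each probe. Signals are not scaled between arrays. Bars are means over unmarked spots, and open circles are spots the software marked as outliers. The dashed line is the dimmest detected probe of the tumour-labelled array, 18.3 units. The unscaled spots of miR-143 and miR-126 do not overlap between arrays. The tumour-labelled array is 1.89-fold brighter at the scaling percentile, and the share of all probes that separate was not counted. The miR-145 means, 8.14 and 17.3 against 1.14 and 4.23, lie under the line. The line is no cutoff, since 4 undetected probes of the tumour-labelled array are brighter.

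Neither measured miRNA reached the 2-fold size used as a call once scaled: 0 of the 2 did, where among the 85 miRNAs that both arrays measured 12.9% were called higher and 22.4% lower. Without scaling both did, at 3.35-fold for miR-143 (log2 ratio 1.74) and 3.03-fold for miR-126 (1.60), where 32.9% of all were called higher and 5.88% lower. Their place in the order of ratios does not depend on a common factor per array: miR-143 ranked 15 and miR-126 ranked 19 of 85 from the highest, as labelled. With the labels exchanged their ranks would be 71 and 67 of 85. They lay 1.29 and 1.14 above the median of the 85 on the log2 scale, a median that stood at -0.46 after scaling and 0.46 without it. Of the other 83 measured miRNAs, 69 had a lower ratio than miR-143 and 66 a lower ratio than miR-126.

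As a share of the summed signal of all miRNAs, miR-143 made up 0.900% on the tumour-labelled array and 0.498% on the normal-labelled array. Dividing by each array's sum is itself a scaling, and the share depends on what enters the sum. For miR-126 the shares were 1.10% and 0.661%. Both shares were higher on the tumour-labelled array, by 1.81 and 1.67 times. A few miRNAs held a large part of that sum on 1 array each, the skeletal muscle list on the tumour-labelled array and miR-21, with 2.63% on the tumour-labelled array and 23.8% on the normal-labelled array, on the other. With the 7 muscle miRNAs left out of it, miR-143 made up 1.25% on the tumour-labelled array against 0.521% on the normal-labelled array, and miR-126 made up 1.54% against 0.692%, ratios of 2.40 and 2.22. With miR-21 left out instead, miR-143 made up 0.924% on the tumour-labelled array against 0.653% on the normal-labelled array, and miR-126 made up 1.13% against 0.867%, ratios of 1.42 and 1.31. With both left out the ratios were 1.88 and 1.73. These are shares of brightness, which the probe affects too, so the 2 miRNAs are not ranked against each other by level.

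The comparison of smooth muscle with endothelium thus rests on the ratios of miR-143 and miR-126. Their log2 ratios differed by 0.15 (spot SE 0.03), that is 1.11-fold higher for miR-143, and the difference is the same under any common scaling of an array. Over the combinations of their probes it ran from 0.10 to 0.19. It exceeded the spot SE, but the SD of the same difference over paired spots was 0.13, and whether it exceeds the spread between rats cannot be read from 1 array per group. Normexp background correction with an offset of 50 brought the difference to -0.0077. Between miR-143 and miR-126 in the order of ratios lay 3 miRNAs, miR-29a, miR-99a and miR-195.

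**Figure D2:**
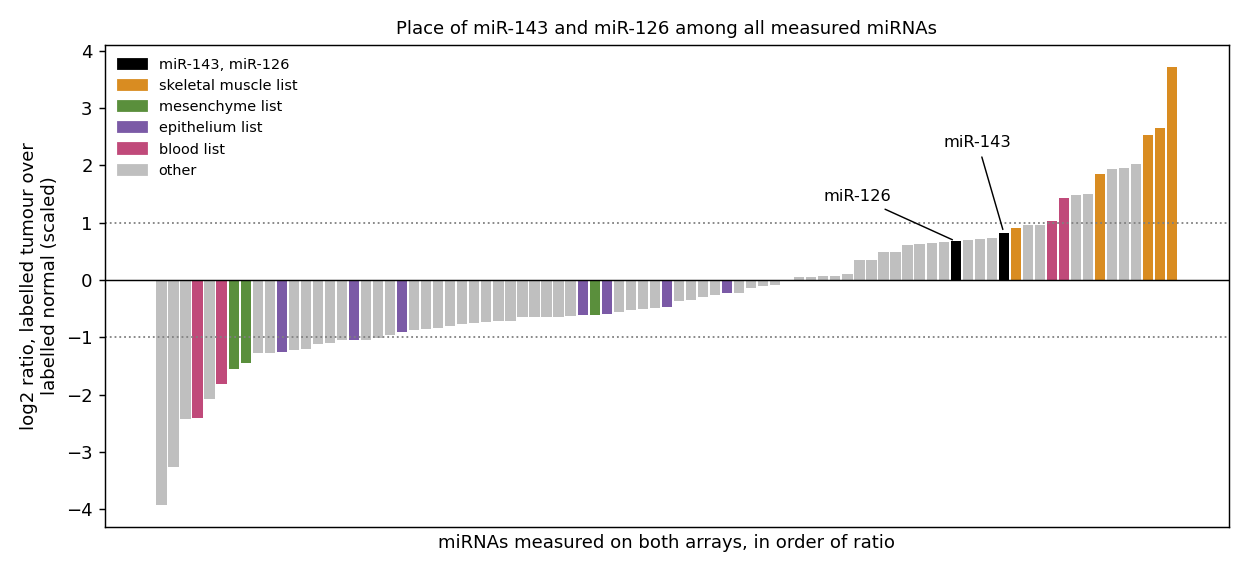
Log2 ratio, tumour-labelled array over normal-labelled array after scaling, for the 85 miRNAs measured on both arrays, 1 bar each in rising order; dotted lines mark 2-fold. miR-143 at 0.82 and miR-126 at 0.68 (black) stand at ranks 15 and 19 from the highest as labelled, and at 71 and 67 with the labels exchanged. As drawn, the mesenchyme and epithelium lists lie all to their left and the measured skeletal muscle list all to their right. Of all 83 others, 69 lie to the left of miR-143 and 66 to the left of miR-126.

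miR-145, which shares the primary transcript of miR-143, was not detected on either array. With its first probe the lowest, median and highest of 10 spots were 3.82, 8.06 and 13.1 intensity units on the tumour-labelled array and -4.73, 1.82 and 5.28 on the normal-labelled array, and the 2 arrays overlapped. With its second probe they were 11.1, 18.3 and 29.8 on the tumour-labelled array and 0.483, 4.96 and 10.6 on the normal-labelled array, and these did not overlap. Before scaling, the dim signal was thus brighter on the tumour-labelled array at all 10 spot positions of each probe. Here too, the share of all probes brighter at every position was not counted. The mean gain over unmarked spot pairs was 7.00 ± 3.12 units with the first probe (SD, 10 spot pairs) and 13.1 ± 4.54 with the second (SD, 9 spot pairs).

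Only the second miR-145 probe had any spot well above background, 3 of 10 on the tumour-labelled array and 0 of 10 on the normal-labelled array. Among its 9 unmarked spots on the tumour-labelled array 2 were, short of the share needed for detection. Its mean of 17.3 ± 3.14 units on the tumour-labelled array (SD, 9 unmarked spots) lay just under the dimmest detected probe of that array, at 18.3, and its mean on the normal-labelled array was 4.23 ± 2.61 (SD, 9 unmarked spots). The value of 18.3 is no cutoff, since 4 undetected probes of the tumour-labelled array were brighter. Of the 672 negative control spots of each array, 6 exceeded the mean of the second miR-145 probe on the tumour-labelled array and 140 exceeded it on the normal-labelled array. Because neither array passed the detection rule, no fold is given for miR-145, and its difference from miR-143 and from miR-126 was not computed. A miRNA that fails the rule is not shown to be absent.

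The scanner software has a detection flag of its own for the summed signal of a miRNA, and by that flag miR-145 was detected on the tumour-labelled array alone. Its total gene signal there was 16.9 units with a software error of 3.81, against 3.56 with an error of 3.26 on the normal-labelled array. The flag called 36% of all miRNAs on the tumour-labelled array and 31.4% on the normal-labelled array. Its signal on the tumour-labelled array was set against the lowest flagged signal of the normal-labelled array. The ratio was 1.25-fold after scaling of the total gene signals and 2.06-fold without it. These are not lower bounds, since miR-19a was unflagged on the normal-labelled array at a signal above the lowest flagged one. The detection of miR-145 thus depended on which rule was used.

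Short probes were seldom detected on this array. Of the 168 probes with 13 or 14 bases, the lengths of the miR-145 probes, 4.76% were detected on the tumour-labelled array and 4.17% on the normal-labelled array. Of the 312 probes with 17 to 19 bases, the lengths of the miR-143 and miR-126 probes, 27.2% and 22.4% were. Counted by miRNA, 3 of the 42 whose longest probe had 14 bases or fewer were detected on the tumour-labelled array and 4 on the normal-labelled array. Among the 308 with a longer probe, 101 and 84 were. The miR-145 probes also held more G and C bases, 61.5% and 57.1%, against 44.4% to 47.4% in the miR-143 and miR-126 probes, and lengths were not compared at like GC content. The part of probe length or GC content in the missing detection of miR-145 was not tested.

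**Figure D3:**
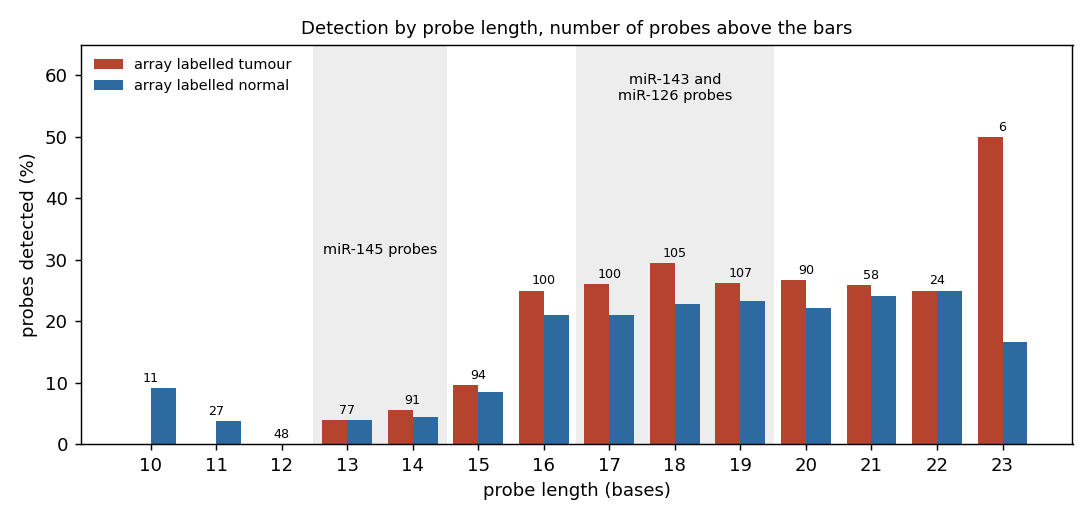
Percentage of probes detected (vertical axis) by probe length in bases (horizontal axis) on the tumour-labelled array (left bar) and on the normal-labelled array (right bar), with the number of probes above each pair. Shading marks the lengths of the miR-145 probes, 13 and 14 bases, where 3.90% and 5.49% of probes were detected on the tumour-labelled array, and of the miR-143 and miR-126 probes, 17 to 19 bases, where 26.0% to 29.5% were.

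Other miRNAs known to act on vascular smooth muscle growth or tone lay on both sides of 0 after scaling, with 3 log2 ratios above it and 4 below. Of the 10 in the list, 9 were on the array and 7 measured on both, of which 0 were called higher and 3 called lower (12.9% and 22.4% of all 85), with a median log2 ratio of -0.22 against -0.46 over all 85. miR-21, which promotes smooth muscle growth, was at -3.26. miR-221, which lowers the cell cycle inhibitor p27 in smooth muscle, was at -2.43 from 1 probe, and the NF-kB-induced miR-146a was at -1.04. miR-26a, a regulator of SMAD signalling in smooth muscle, was at 0.96, and it alone of the 7 had a ratio above those of both miR-143 and miR-126. The other 2 with ratios above 0 were miR-29b at 0.66 and miR-23b at 0.05. Without scaling the list's median was 0.70, with 2 members called higher and 2 called lower (32.9% and 5.88% of all).

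Endothelial and vessel growth miRNAs other than miR-126 also lay on both sides of 0 after scaling, with 3 log2 ratios above it and 8 below. Of its 16 members on the array 11 were measured on both arrays, and 1 was called higher, 1 called lower and 9 neither (12.9% and 22.4% of all 85 were called higher and lower), with a median log2 ratio of -0.64 against -0.46 over all. miR-10b, which shapes angiogenic behaviour of endothelial cells in zebrafish, was at 1.49 from 1 probe, and it was the 1 member with a ratio above those of both miR-143 and miR-126. miR-210, induced by hypoxia, was at -1.11 from 1 probe. miR-130a, which represses the homeobox genes GAX and HOXA5, was at -0.88, and miR-27a, of the miR-23a cluster, was at -0.80. Also above 0 were miR-322 at 0.63 and miR-23a at 0.07. Without scaling the median was 0.28, against 0.46 over all, and 2 members were called higher, where 32.9% of all were.

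Mesenchymal miRNAs had lower ratios than the vascular pair, as did most miRNAs. Of miR-199a-5p, miR-214 and miR-199a-3p, which derive from the Dnm3os transcript of fibroblasts and other mesenchymal cells, 3 of 3 lay below miR-143 and below miR-126, where 69 and 66 of all 83 others did. The 3 lay below in all 17 alternatives too, some of which only changed a common factor per array and could not alter this order. The log2 ratio of miR-143 exceeded that of miR-199a-5p by 2.38, that of miR-214 by 2.26 and that of miR-199a-3p by 1.43. For miR-126 the differences were 2.23, 2.12 and 1.28. The 3 mesenchymal miRNAs made up 1.20% of the summed signal on the tumour-labelled array and 2.20% on the normal-labelled array.

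Epithelial miRNAs also lay below the vascular pair, again like most miRNAs. All 7 of the list, the miR-200 family with miR-203 and miR-205 of keratinocytes, were measured on both arrays, and 7 of 7 had lower ratios than miR-143 and than miR-126, where 69 and 66 of all 83 others had. The 7 lay below in all 17 alternatives too, though a changed common factor per array, as in some of them, could not alter this order. The farthest below was miR-141 of the miR-200 family, by 2.08 from miR-143 and by 1.93 from miR-126 on the log2 scale. miR-205 followed at 1.86 and 1.72 below, with a log2 ratio of -1.04 of its own. The list made up 5.92% of the summed signal on the tumour-labelled array and 9.74% on the normal-labelled array.

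Skeletal muscle miRNAs, by contrast, had higher ratios than the vascular pair. Of the 5 measured, 0 lay below miR-143 or miR-126, where 69 and 66 of all 83 others did. miR-1, a miRNA of striated muscle, was 2.90 above miR-143 on the log2 scale and 3.05 above miR-126, while miR-206, a miRNA of skeletal muscle and its precursors, was 0.09 and 0.23 above. Quantile normalization placed 1 of the 5 below miR-143, and with no filter on dim probes, where all 7 enter, 2 lay below it. miR-208 and miR-499, carried by myosin genes, were detected on neither array. The part of muscle content in the ratios of miR-143 and miR-126 was not tested.

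Blood cell miRNAs lay on both sides. The erythroid miR-451 was at 1.04 from 1 probe, 0.21 above miR-143 and 0.36 above miR-126. The lymphocyte miRNA miR-150 was at 1.43, also from 1 probe. The myeloid miRNA miR-223 was 3.23 below miR-143 and 3.09 below miR-126, and miR-142-3p, of the blood cell lineages, was 2.64 and 2.50 below. The list made up 0.802% of the summed signal on the tumour-labelled array and 1.42% on the normal-labelled array, and its part in the vascular ratios was not tested.

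Likeness over 2 arrays can be measured only as closeness in log2 ratio. Nearest to miR-143 were miR-206 at 0.91, the collagen regulator miR-29a at 0.73 and miR-99a at 0.71. Nearest to miR-126 were miR-29b, of the same family as miR-29a, at 0.66, miR-195 at 0.70 and miR-30b-5p at 0.65, the last from 1 probe. The 3 near miR-143 differed from it by 0.09, 0.09 and 0.11, each above the spot SE of that neighbour (0.03, 0.02 and 0.03). The 3 near miR-126 differed from it by 0.02, 0.03 and 0.03, close to or under spot SEs of 0.02, 0.03 and 0.05.

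**Figure D4:**
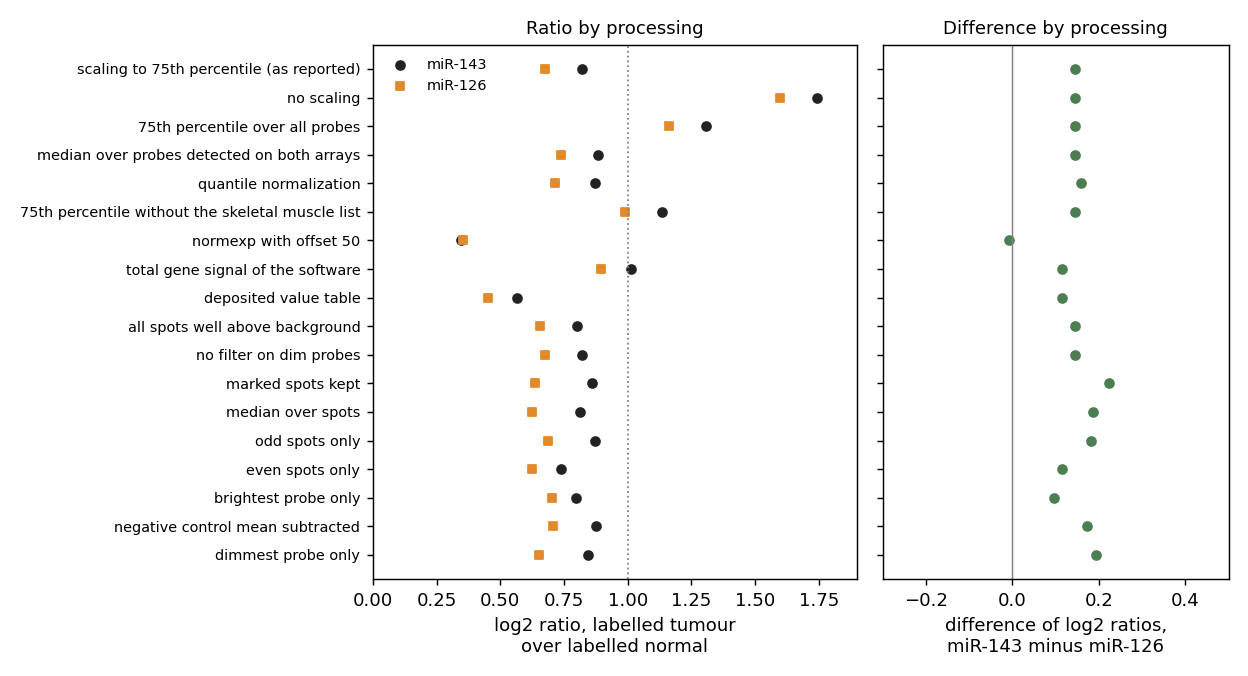
Log2 ratios, tumour-labelled array over normal-labelled array, of miR-143 (circles) and miR-126 (squares) on the left, and their difference on the right, under the settings reported here (top row) and 17 alternatives (1 row each). The dotted line marks 2-fold. All ratios stand above 0, from 0.35 to 1.74 for miR-143 and from 0.35 to 1.60 for miR-126, while the difference stays within -0.0077 to 0.22.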

How the data were processed

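Total RNA of rat tongue was measured on 2 Agilent arrays, 1 per group, with 1 slide and 1 scan per the file headers. Per the file headers, the deposited intensity of each spot was made with Agilent Feature Extraction 10.5.1.1, which subtracted background and detrended each array; arrays were not normalized to each other. The software's flags (a score of 0 or 1 per spot or miRNA) are used as the authors deposited them. The deposited value table holds the software's total gene signal, raised to 1 where lower. The labels name a labelling kit made for messenger RNA, and the sources used here do not say how miRNA was labelled.

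Spots marked as outliers were left out, the other spots of a probe averaged, probes scaled to the 75th percentile, and log2 ratios averaged over probes detected on both arrays (Python 3.11.15, pandas 2.3.3; normexp by limma 3.58.1). Steps were tested on simulated data. A call means 2-fold or more and is no test. The precision is limited by the number of arrays; depth does not apply. Members, lists and alternatives were chosen with earlier results of these data known. The miRNAs named are the members, the 3 nearest to each in log2 ratio, up to 4 per list with the largest ratios in size, and others where a small count turns on them.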

Additional observations from a re-analysis of the deposited data

Results flagged for a closer look

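miR-126*, the other strand of the miR-126 hairpin, gave a signal that no comparison used. Its total gene signal was 20.6 intensity units on the tumour-labelled array, with a software error of 5.49, and 3.15 on the normal-labelled array, with an error of 4.60, and the software's flag called it detected on the tumour-labelled array alone. By the rule used here it was detected on neither array: 4 of its 20 spots were well above background on the tumour-labelled array and 1 of 20 on the normal-labelled array, a spot marked as an outlier. Before scaling, all 20 spot positions were brighter on the tumour-labelled array, with medians of 15.1 on that array and 2.43 on the normal-labelled array. For this probe too, the share of all probes brighter at every position was not counted. Set against the lowest flagged signal of the normal-labelled array, its signal on the tumour-labelled array was 1.53-fold as high after scaling and 2.51-fold without it. These are not lower bounds, since an unflagged miRNA can exceed the lowest flagged signal.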

How the results depend on the processing

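The ratios of miR-143 and miR-126 stayed above 0 in all 17 alternatives, of which 2, the subtraction of negative controls and the dimmest probe, were chosen after seeing the data, as were the sums without miR-21. Ratios moved by more than the SD of paired spots with the following. Without scaling miR-143 was at 1.74 and miR-126 at 1.60, with the 75th percentile over all probes at 1.31 and 1.16, and without the skeletal muscle list in the percentile at 1.13 and 0.99. With the total gene signal they were at 1.01 and 0.90, with the deposited value table at 0.57 and 0.45, and with normexp at 0.35 and 0.35. The median over detected probes moved miR-126 alone, to 0.74. So miR-143 reached 2-fold in 4 alternatives and miR-126 in 2. The difference between them moved by less than their 2 SDs combined in 16 alternatives and turned to -0.0077 with normexp, and the cause was not tested. Several of the 16 only changed a common factor per array, which cannot move the difference. The total gene signal and the value table share their signals, so the 16 are not separate checks. miR-145 was detected on 0 arrays by every alternative based on spots and on 1, labelled tumour, by the total gene signal. The spot rule uses only the software's flags, so scaling, background correction, averaging and choice of probe could not change that detection. A stricter rule could not add to it. Only keeping marked spots or using odd or even spots could have. The log2 ratio of miR-145 was 1.09 in the deposited value table, where signals that fail the detection rule count, and -0.92 with no filter, which is the ratio of the floors of the 2 arrays. Its differences from miR-143 and miR-126 were not run. Calls over all miRNAs, 11 higher and 19 lower as reported, became 28 and 5 without scaling, 23 and 7 with the percentile over all probes, 18 and 8 without the muscle list, 3 and 8 with normexp, 18 and 15 with the total gene signal and 27 and 57 with the value table. No paired analysis was possible because each group has 1 array.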
